A study of Mus musculus with 3 samples.

Results

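The genes described here encode the proteins of the cytosolic ribosome. They were chosen by name: genes with a transcript annotated as protein_coding whose symbol starts with Rpl or Rps followed by a number, a or p, leaving out the S6 kinases and symbols that mark pseudogenes. The rule gave 86 genes of the 55536 annotated in the tables. They comprised 43 genes of the large (60S) subunit, 31 of the small (40S) subunit, 3 of the acidic stalk, 8 paralogues and Rps19bp1, which encodes a binding partner of Rps19 and is no ribosomal protein. All values came from 3 sequencing libraries of nuclear RNA, from which ribosomal RNA had been removed. The cells were C57BL/6J bone marrow-derived macrophages (BMDM) given Lipid A, the membrane anchor of bacterial lipopolysaccharide, at 100 ng/ml for 15 min. No untreated or cytoplasmic library was among them, so nothing below is a response to Lipid A or a difference between compartments. The labels call the fraction nucleus in one field and nucleoplasm in another, and they give a single donor entry for the 3 biosamples, so the spread between libraries may be technical.

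Cytosolic ribosomes are built in the nucleolus, where ribosomal proteins imported from the cytoplasm join ribosomal RNA. The mRNAs of these proteins begin with a run of pyrimidines at the cap, through which mTOR signalling controls their translation. Many of the introns carry small nucleolar RNAs (snoRNAs), which guide the chemical modification of ribosomal RNA.

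The 3 libraries held 17345644 to 20947006 expected counts, that is reads shared among annotated genes by a model. The starting amount was 500 ng for replicate 2 and 1 µg for the other libraries. All 8 macrophage markers examined were present, with a median between 193 and 230 TPM (transcripts-per-million, a level per transcript length) over the libraries. Of 30 markers of 8 other cell types, 10 averaged 10 counts or more, the highest being Vwf at 27.0 TPM. The medians of these types ran from 0 to 2.48 TPM. The 10 included all 4 endothelial markers (median 2.31 to 2.48 TPM) and 3 of 4 dendritic cell markers (median 0.1 to 0.32 TPM). Cd4, a T cell marker, stood at 21.4 TPM. In bulk RNA, fewer cells of a type and less RNA per cell cannot be told apart.

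Nuclear RNA of the ribosomal protein genes stood above that of the median protein-coding gene. Together they held 62865, 36653 and 52406 counts in replicates 1 to 3, which is 0.340%, 0.211% and 0.2502% of all annotated counts. The median member stood at 45.4, 34.1 and 32.0 TPM in the 3 libraries (37.1 ± 7.21 TPM, SD, n = 3), beside 7.29, 7.34 and 5.46 TPM for the 11960 protein-coding genes whose count averaged 10 or more. The ratio of these medians was 6.23, 4.65 and 5.85. In the second deposited table, made by another method, the median member was lower, at 17.9, 23.2 and 4.19 TPM, and so was the median of the same protein-coding genes, with a ratio of 4.22, 3.32 and 3.86. TPM is a share of all RNA in a library, and protein-coding genes took 27.6%, 35.6% and 21.3% of it in replicates 1 to 3. When TPM was rescaled to protein-coding genes alone, the median member stood at 165, 96.0 and 150 TPM, so that replicate 2 and not replicate 3 was the lowest. A mean count of 10 was reached by 82 of the 86 members, and the other 4 were all paralogues.

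Levels were of similar size in both subunits. The median gene of the 60S subunit stood at 37.2 ± 6.47 TPM (n = 3) and that of the 40S subunit at 40.8 ± 7.96 TPM. Within each library the 40S median was the higher, with 49.97 against 44.6, 35.5 against 34.0 and 37.1 against 32.9 TPM; the difference was not tested. The stalk genes, whose products recruit elongation factors to the ribosome, stood somewhat higher. Rplp1 was at 88.7, 64.3 and 74.1 TPM, Rplp2 at 62.7, 48.5 and 54.1 TPM, and Rplp0, the scaffold of the stalk, at 55.1, 43.9 and 38.1 TPM. The 8 paralogues had a median of 3.703 ± 1.34 TPM.

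**Figure D1:**
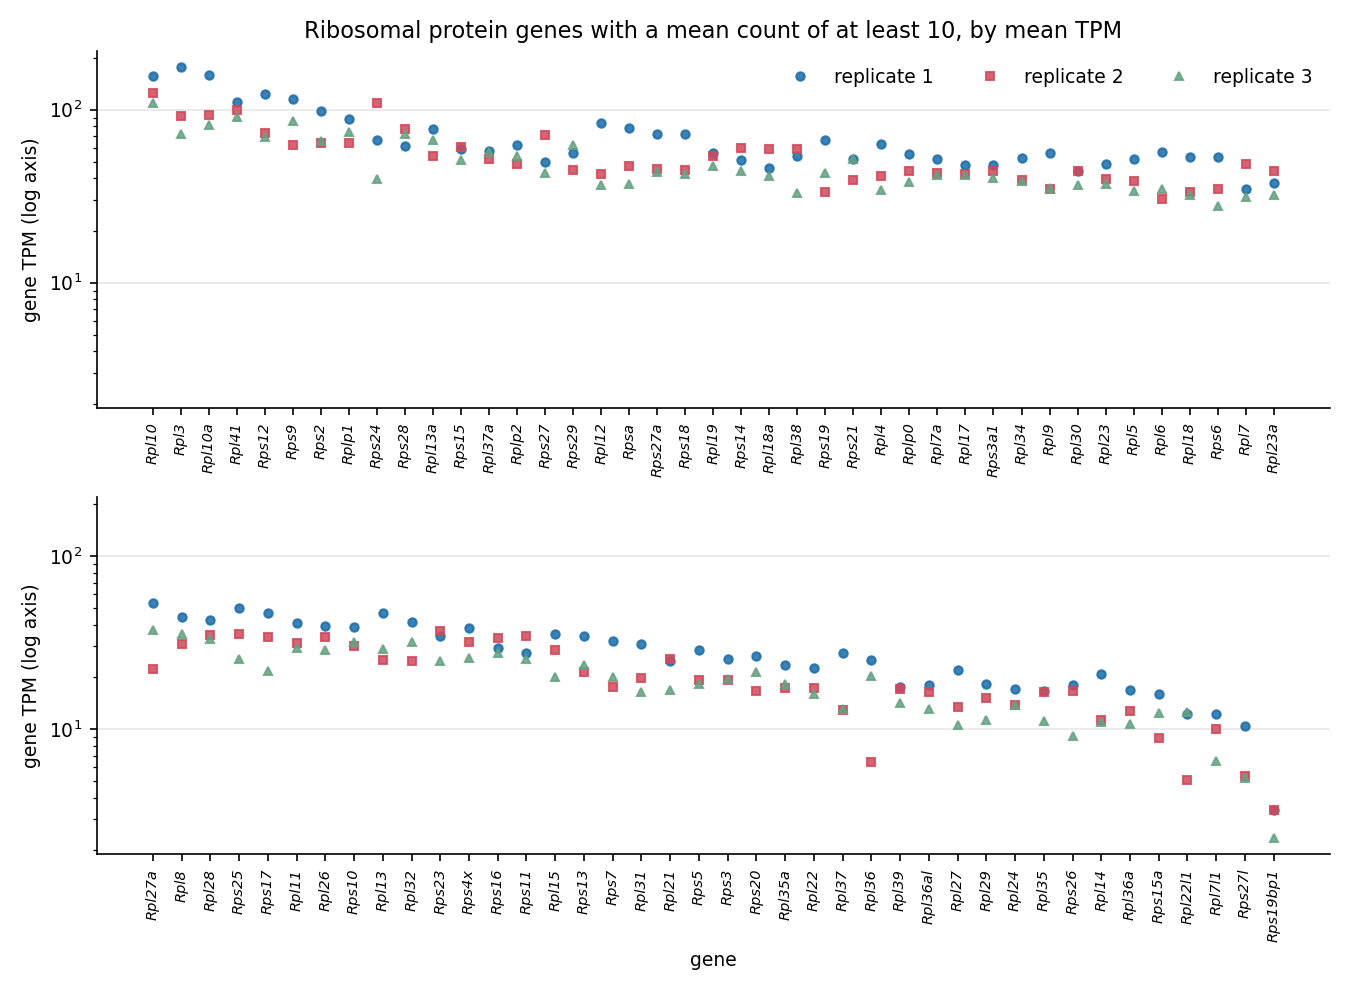
Gene TPM (vertical, log axis) of the members averaging 10 counts or more that are reported by name, ordered by mean, with 1 symbol per library. Rpl10, Rpl3 and Rpl10a stand at the upper end and Rps19bp1 at the lower end, and Rps24 and Rpl36 are among the genes in which 1 library stands away from the other 2.

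At the upper end stood Rpl10, with 157, 124 and 109 TPM, and Rpl3, with 176, 92.2 and 72.0 TPM. Rpl10 sits beside the tRNA sites of the large subunit and Rpl3 near its peptidyl transferase centre. Rpl10a followed at 158, 92.8 and 81.1 TPM. Replicate 1 was the highest library for all 3 genes. Rpl41, which encodes a very short basic peptide, came next at 111, 100.0 and 91.2 TPM, with little spread. The next 6 were Rps12 (89.0 ± 30.2 TPM), Rps9 (87.6 ± 26.3), Rps2 (76.0 ± 18.8), Rplp1, Rps24 (71.9 ± 35.3) and Rps28 (70.1 ± 7.82). With an SD of this size neighbouring genes in the order did not differ beyond their spread.

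The TPM of Rps24, a small-subunit protein with several splice forms, was 66.4, 110 and 39.6, highest in replicate 2. Its counts were not: they were 1694, 1188 and 1053. In replicate 2 the model gave 424 counts to a coding transcript of 468 bases, against 159 and 111 in replicates 1 and 3, and a count weighs more in TPM on a short transcript. Rps15a shows the opposite case. It had a mean of 767 counts but only 12.4 ± 3.59 TPM, and 1150, 534 and 432 of its counts lay on a transcript of 5179 bases, while its other coding transcripts with counts are 250 to 640 bases long.

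The 10 lowest members were, from the bottom, Rpl10l and Rpl39l, both at 0 counts in every library, Rpl3l with 1, 0 and 0 counts, Rps27rt with 0, 3.15 and 3.16 counts, Rps19bp1 (3.06 ± 0.624 TPM), Rps27l (6.997 ± 3.00), Rpl7l1 (9.56 ± 2.81), Rpl22l1 (9.95 ± 4.24), Rps15a and Rpl36a (13.4 ± 3.15). All but Rps19bp1, Rps15a and Rpl36a are paralogues. A library floor of 3 counts corresponds to 0.143 to 0.173 CPM (counts-per-million), and levels under it rest on fewer than 3 counts.

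A large part of the reads lay on transcripts that the annotation calls retained_intron, that is, noncoding transcripts that keep intron sequence. Such transcripts are annotated for 65 members. Over all members they took 36.1%, 28.1% and 25.02% of the counts in replicates 1 to 3, protein_coding transcripts 57.0%, 65.7% and 68.2%, nonsense_mediated_decay transcripts 3.18% ± 0.159 and processed transcripts 3.43% ± 0.273. For 64 of the 65 members the mean count was 50 or more, and these were used for shares. Their median retained-intron share was 30.1%, 21.3% and 22.1% (24.5% ± 4.85), beside 19.0%, 19.4% and 17.5% (18.6% ± 1.03) for 6319 other protein-coding genes with such a transcript. Summed over the genes, the share was 34.9% ± 6.16 for members and 22.6% ± 1.37 for the others. Rpl3 and Rpl10a carried much of that difference: without both the members' summed share was 27.1% ± 4.62. Reads in introns that no annotated transcript holds were not counted for any gene.

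The spread among members was wide, from 0% to 87.5%. A mean share of at least 50% was found for 12 of 64 members (18.8%), near the 15.9% of all 6383 protein-coding genes examined, and in 9 of the 12 the share was at least 50% in each library. Shares under 5% were found for 9 of 64 members (14.1%), against 21% of all those genes. The nearest members on either side of the 50% line were Rpl12 at 50.9% ± 2.31 and Rpl27a at 45.7% ± 9.14.

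**Figure D2:**
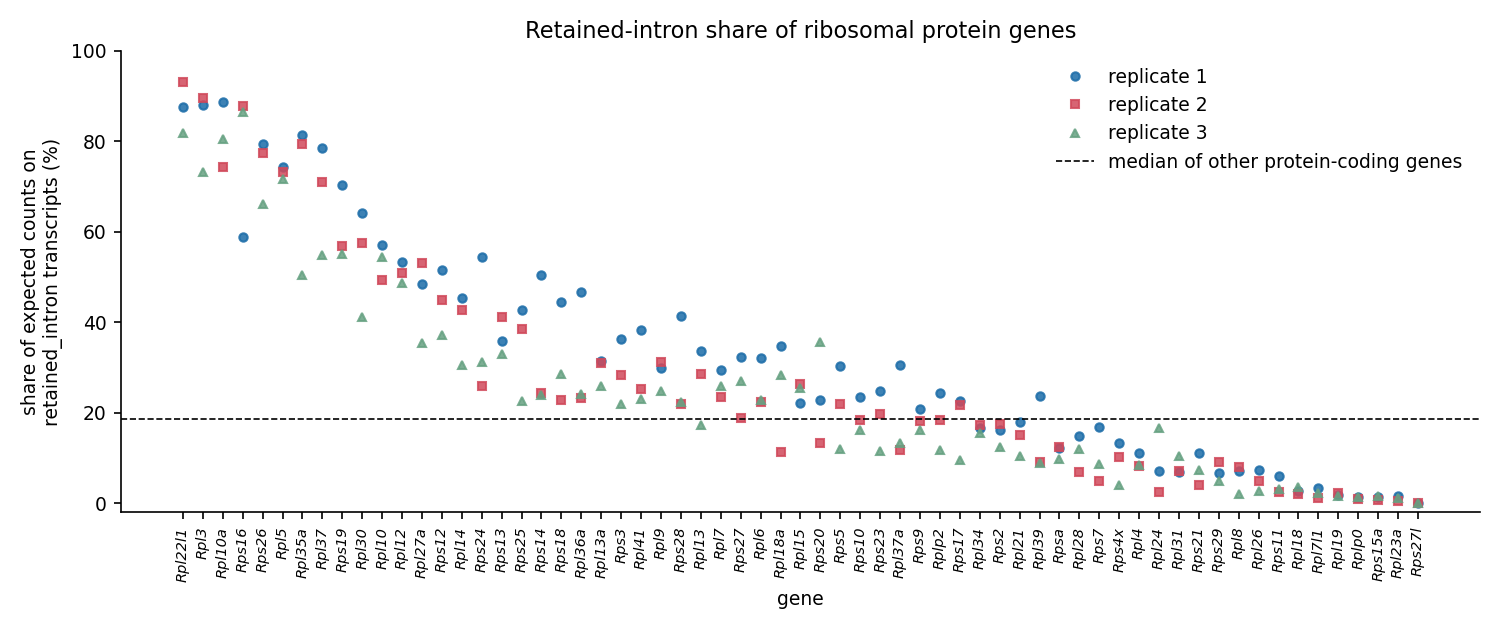
Share of expected counts on retained_intron transcripts (vertical, percent) for the members with such a transcript and 50 counts or more on average that are reported by name, with 1 symbol per library. The dashed line is the median of other protein-coding genes, 18.6%, and replicate 1 holds the highest share in most of the members.

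The 5 highest shares belonged to Rpl22l1, Rpl3, Rpl10a, Rps16 and Rps26. For Rpl22l1, a paralogue of Rpl22, they were 87.6%, 93.2% and 81.8%. For Rpl3 they were 88.0%, 89.6% and 73.2%, and for Rpl10a 88.6%, 74.4% and 80.4%. Rps16 was uneven, with 58.9% in replicate 1 and 87.9% and 86.5% in the others, while Rps26, a protein at the mRNA exit channel, had 79.4%, 77.4% and 66.2%. The 5 lowest were Rps27l at 0%, Rpl23a at 1.05% ± 0.503, Rps15a at 1.16% ± 0.506, Rplp0 at 1.18% ± 0.301 and Rpl19 at 1.85% ± 0.430. Rpl5 and Rpl11, which together with 5S ribosomal RNA bind Mdm2 and so restrain the degradation of p53, differed: Rpl5 had 74.2%, 73.2% and 71.7% of its counts on 4 retained_intron transcripts, and Rpl11 has no such transcript.

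In 44 of the 65 members at least 1 whole intron of the reference coding transcript lay inside a retained_intron transcript. The retained introns with the most counts were few. In Rpl3 (chr15:80077791-80091868, minus strand, GRCm38) a transcript of 1877 bases that keeps intron 3 (chr15:80081032-80081614, 583 bases) held 3438, 1542 and 1680 counts, which exceeds the whole count of most members. A second Rpl3 transcript, which keeps intron 5 (chr15:80079851-80080365, 515 bases) with the snoRNA gene Gm22077 inside it, held 1148, 599 and 436 counts. In Rpl10a (chr17:28328471-28331033, plus strand) the transcripts with the most counts keep intron 3 (chr17:28329048-28329373; 1260, 613 and 908 counts) and intron 4 (chr17:28329523-28330524; 1307, 365 and 541 counts). In Rps19, the protein most often mutated in Diamond-Blackfan anaemia, a transcript of 2657 bases held 925, 275 and 324 counts. It keeps all 245 bases of intron 2 (chr7:24885207-24885451) and 2207 of the 2729 bases of intron 3 (chr7:24885553-24888281), so most of it is intron 3. The exon and intron junctions that these annotated transcripts keep are shown, because they are the places where a spliced and a retained read part. Reads across them were not examined. Each line gives 12 exon bases and 18 intron bases on the gene's strand from the annotated transcript, with the first 2 intron bases in capitals.
Rpl3 intron 3, chr15:80081597-80081626: ctataagaactgGTaagaggctcttgggtt
Rpl3 intron 5, chr15:80080348-80080377: aagggtacaaagGTaagctttgctgtagtt
Rpl10a intron 3, chr17:28329036-28329065: gggcaccgtcagGTtggcaccgctctaacc
Rpl10a intron 4, chr17:28329511-28329540: tcaagaagctggGTaggtggggctcactag
Rps19 intron 2, chr7:24885195-24885224: cttcctcaaaaaGTaagtgtttgttggaac

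Rpl5 gave its high share in another way. Its retained_intron transcripts with the most counts cover introns 5 and 6 only in part, the largest holding 301, 159 and 216 counts with 603 bases of the 848-base intron 5 that carries Snord21. Reads of unspliced precursor RNA fall on such transcripts too, and a stable RNA with a retained intron and a precursor not yet spliced cannot be told apart in these tables.

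Counting protein_coding transcripts alone changed the order of the members. Rpl3 moved from rank 2 to rank 57, with 18.4, 8.26 and 20.4 TPM on coding transcripts, and Rpl10a from rank 3 to rank 48, with a highest value of 25.7 TPM, in replicate 2. Replicate 1, the highest library for the gene TPM of both, was not the highest on coding transcripts of either. Rpl12, part of the stalk base, moved from rank 17 to rank 77 (5.39 ± 1.92 TPM) and Rpl5 from rank 36 to rank 73 (6.93 ± 0.315 TPM). Rpl10 stayed among the first 10, at rank 8 with 62.5, 61.2 and 46.2 TPM. Rpl41 became the highest, with 80.5, 83.6 and 76.2 TPM, ahead of Rplp1, all of whose counts lay on coding transcripts. The 12 members with a share of at least 50% had a median of 39.8 ± 7.26 TPM over all transcripts and 9.48 ± 1.73 TPM over coding transcripts. The 52 others with such a transcript had 38.0 ± 7.54 and 27.4 ± 2.33 TPM. The gap on coding transcripts follows in part from how the 12 were chosen, so it is given as a description. Members without a retained_intron transcript dropped too, from 38.2 ± 8.50 to 24.5 ± 3.92 TPM, since short processed and decay transcripts also enter gene TPM.

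**Figure D3:**
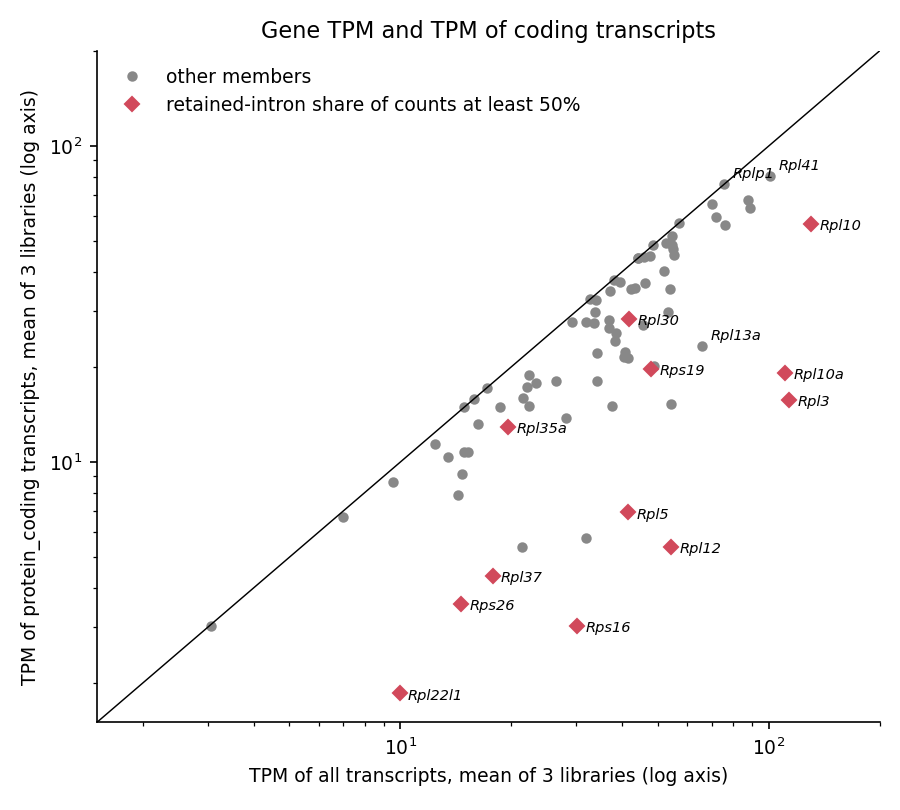
TPM of all transcripts (horizontal) against TPM of protein_coding transcripts (vertical), both log axes and means of 3 libraries, for the 82 members averaging 10 counts or more. Points on the line have all their TPM on coding transcripts, and the red diamonds (retained-intron share of counts at least 50%) lie below it, Rpl3 at 114 and 15.7 TPM.

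The 3 libraries differed in these genes as a group. Counts were scaled by TMM, which sets the bulk of genes equal between libraries, to CPM, and each library was set against the mean of the other 2 on the log2 scale. In replicate 2 the 82 members had a median of -0.42, a level 0.748-fold that of the other libraries, and 78 of them were below 0. Replicate 1 had a median of 0.33 (1.25-fold, 65 of 82 above 0) and replicate 3 of 0.15 (1.11-fold, 57 of 82). The median over all 15876 genes was within 0.02 of 0 in each library. Replicate 2 was the lowest library for 68 of 82 members, against 32.4% of all genes. Replicate 1 was the highest for 47 members (36.6% of all genes) and replicate 3 for 33 (31.9% of all genes). The sign for replicate 3 depended on the scaling and on replicate 2: by total counts its median was -0.03, and against replicate 1 alone it was -0.10. Total counts also moved the median over all genes, to 0.16 in replicate 1 and -0.18 in replicate 3, so that relative to all genes the members remained above 0 there. Replicate 2 is also the library made from less RNA, and whether that bears on the difference was not tested.

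At a fold of 1.5 or more against both other libraries, 15 of 82 members (18.3%) were lower in replicate 2, against 6.25% of all genes, and none was higher (3.99% of all genes). In replicate 1, 8 members (9.76%) were higher, beside 10.4% of all genes, and none lower (8.46%). In replicate 3, 3 members were higher (3.66%, beside 4.89%) and none lower (5.74%). With this scaling and table, the count below in replicate 2 exceeded its share among all genes and the others did not, and 1 member passed there at a fold of 2. The replicate 1 count changed with both: 19 members were higher by total counts, against 13.9% of all genes, and 13 in the second table, against 8.37%.

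**Figure D4:**
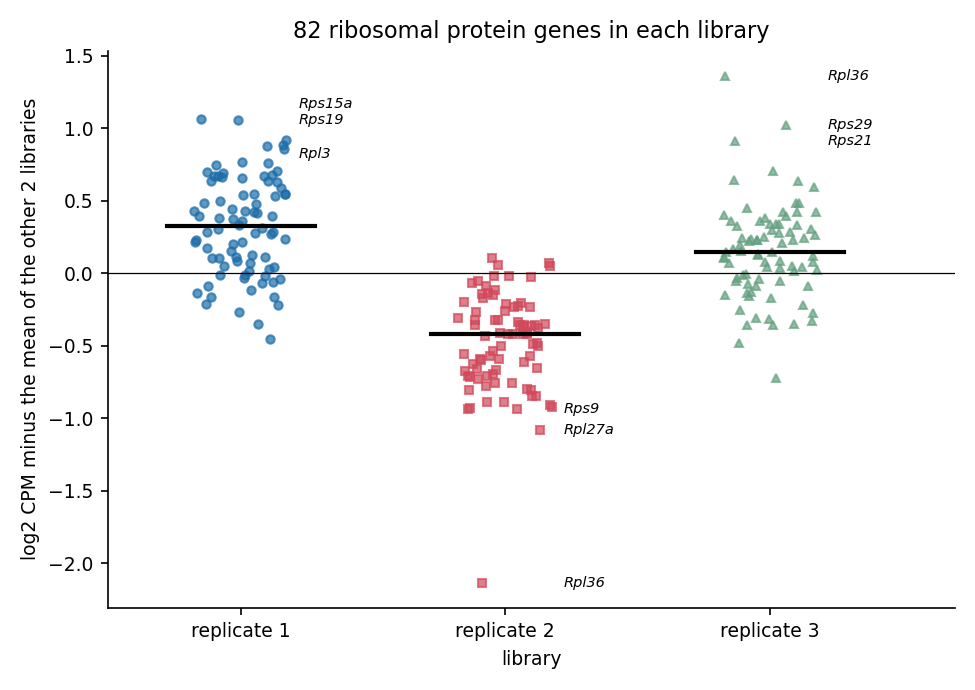
Log2 CPM of each of 82 members in a library minus the mean of the other 2 libraries (vertical), by library, with black bars at the medians. The bars stand at 0.33, -0.42 and 0.15, and Rpl36 stands apart at -2.13 in replicate 2.

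The member furthest from the other libraries in replicate 2 was Rpl36, a small protein of the large subunit, with 5.17, 1.35 and 6.80 CPM from 100.3, 22.01 and 128.8 counts. Pseudogenes matching Rpl36 held 35.4% of the counts of gene and pseudogenes together. Among them, Rpl36-ps2 had 30.69, 6 and 26.22 counts in replicates 1 to 3 of the first table. Gm30671 had 14, 5 and 24 and Rpl36-ps12 14.98, 2.99 and 13.97, so these copies were lowest in replicate 2 too. In the second table Gm30671 was not lowest there, at 88, 89 and 82 counts. Rpl36 was followed by Rpl27a (47.5, 21.1 and 42.0 CPM), Rps9 (91.8, 47.7 and 90.6), Rpl22l1 (14.1, 6.74 and 11.7) and Rpl37 (18.4, 7.99 and 12.5). In each of the 5, replicate 2 was lowest. Others below in replicate 2 included Rpl6, Rpl8, Rpl11, Rpl13, Rpl32, Rplp2, Rps2, Rps7 and Rps10, so both subunits and the stalk were represented. In replicate 1 the furthest were Rps15a (61.8, 32.1 and 27.1 CPM), Rps19 (72.3, 29.5 and 41.04), Rpl3 (285, 143 and 157), Rpl12 (77.2, 39.6 and 43.9) and Rpl37. Rps19, Rpl3, Rpl12 and Rpl37 are also among the 12 members with a retained-intron share of at least 50%. In replicate 3 the furthest were Rpl36, Rps29 (12.3, 9.41 and 21.8 CPM), Rps21 (11.8, 8.22 and 18.5), Rps15a and Rplp2 (23.5, 14.4 and 30.04). Rps29 and Rps21, both short proteins of the small subunit, were highest in replicate 3, together with Rps28 the members past a fold of 1.5 there.

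The excess of replicate 1 lay mainly on retained introns. Retained_intron transcripts of the members summed to 1152, 584 and 680 CPM, which puts replicate 1 at 1.82-fold the mean of the other 2. Coding transcripts summed to 1815, 1366 and 1854 CPM, with replicates 1 and 3 close together and replicate 2 at 0.745-fold the mean of those. Replicate 2 was thus lowest for both kinds of transcript, while replicate 1 stood apart from replicate 3 on retained introns and lay beside it on coding transcripts. The retained-intron share was highest in replicate 1 for 46 of 64 members (71.9%), against 33.7% of all protein-coding genes examined, and lowest in replicate 3 for 36, against 45.8% of all those genes. Over other protein-coding genes the summed share was 23.1%, 23.6% and 21.01%, with replicates 1 and 2 alike.

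**Figure D5:**
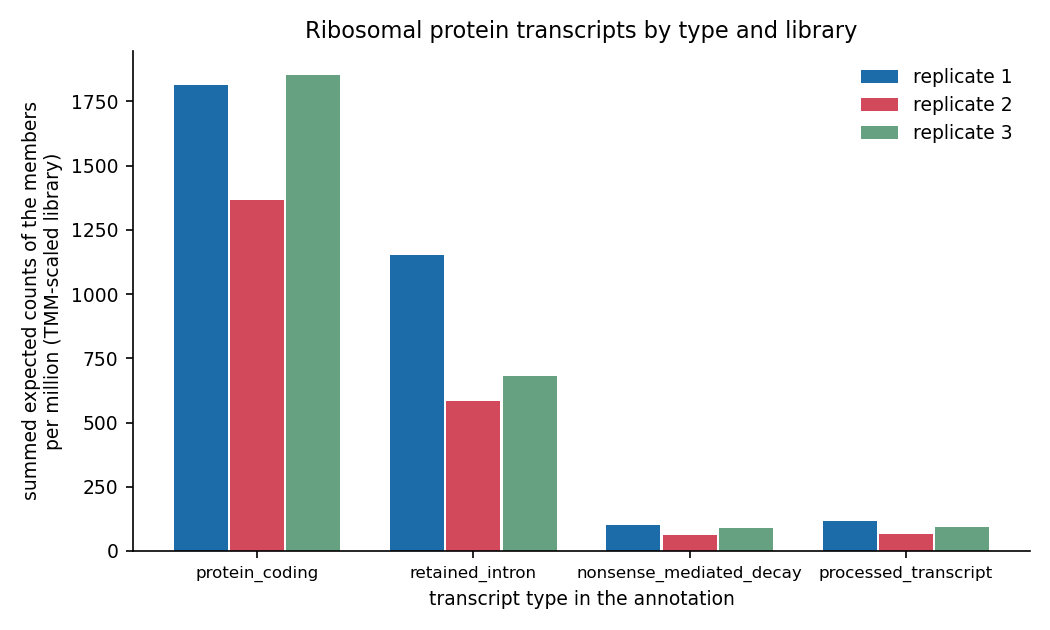
Summed CPM of the members (vertical, TMM-scaled expected counts) by annotated transcript type, with 1 bar per library and no error bars, since each bar is 1 library. Replicate 1 stands at 1152 CPM on retained_intron transcripts against 584 and 680, while on protein_coding transcripts it stands beside replicate 3.

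Both subunits had a similar pattern across libraries. The 43 genes of the 60S subunit had medians 1.22-fold, 0.750-fold and 1.11-fold the other libraries in replicates 1 to 3, and the 31 genes of the 40S subunit 1.34-fold, 0.748-fold and 1.11-fold. The stalk genes were at 1.13-fold, 0.611-fold and 1.51-fold. The 12 members with a retained-intron share of at least 50% were at 1.52-fold, 0.699-fold and 0.901-fold, lower in replicate 3 than in replicate 1. These 12 were chosen by their mean share over the same libraries, so their values are given as a description.

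Paralogues were compared with the gene they resemble in 8 pairs. An exact two-sided sign-flip test over 3 libraries cannot give a p below 0.25, and all 8 pairs gave 0.25, also after Benjamini-Hochberg adjustment over the pairs. The direction was the same in all 3 libraries of each pair. Rpl10l and Rpl39l, known for expression in the male germ line, had 0 counts. Against a floor of 3 counts per library, Rpl10 was at least 692-fold higher than Rpl10l and Rpl39 at least 53.9-fold higher than Rpl39l in each library. Rpl3l, a paralogue of striated muscle, had a single count, and Rps27rt had at most 3.16 counts in a library beside 49.97, 71.1 and 43.2 TPM of Rps27.

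Of the paralogues that were present, Rpl7l1 stood at 12.2, 9.97 and 6.57 TPM beside 34.8, 48.4 and 31.3 TPM of Rpl7, a log2 difference of 2.00 ± 0.428. Rps27l, a target of p53, stood at 10.5, 5.35 and 5.18 TPM, and its log2 difference from Rps27 was 3.00 ± 0.732. Rpl22l1 stood at 12.2, 5.05 and 12.6 TPM beside 22.7, 17.3 and 16.0 TPM of Rpl22 (log2 difference 1.00 ± 0.711). On coding transcripts alone that pair was further apart, 1.85 ± 1.11 TPM for Rpl22l1 and 14.9 ± 1.63 TPM for Rpl22 (log2 difference 3.18). Rpl36a (16.9, 12.7 and 10.7 TPM) and Rpl36al (17.9, 16.5 and 13.0 TPM) were nearly level at -0.24 ± 0.145, and the second table reversed their order (0.35).

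snoRNA genes lie inside 30 of the members, 58 genes in all, with 5 in Rpl4 and 4 in Rpl13a. The hosts' median level was 48.2, 40.4 and 36.7 TPM, beside 46.6, 34.7 and 31.8 TPM for the 47 other genes of the 60S, 40S and stalk. The log2 difference was 0.16 ± 0.095. The retained-intron share differed more: its median was 34.8%, 28.4% and 28.3% for 25 hosts and 24.2%, 19.2% and 16.2% for 36 other genes. In each library the hosts' median share was higher. The SD over libraries was 3.71 percentage points for hosts and 4.03 for the other genes. It does not measure how genes differ within a group, and the difference was not tested. Introns that carry snoRNAs are inside some of these transcripts, as in Rpl3, Rpl12 and Rps12. The snoRNA genes themselves had 0 counts throughout in 16 of the 30 hosts and summed to a mean of 10 counts or more in 3. A size range of 250 to 400 nucleotides, which the labels give, lies above most snoRNAs, so their low counts are no measure of their abundance.

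The second table was set against the first gene by gene. After both were rescaled to protein-coding genes, the median ratio of the first table to the second was 1.24 for 82 members and 0.937 for 11948 protein-coding genes. A ratio of at least 2 in either direction was found for 2 members, against 10.2% of protein-coding genes. These were Rps12, a small-subunit protein, with 328 against 92.4 rescaled TPM (ratio 3.55), and Rpl12, with 198 against 73.2 (2.71). Rpl10 (1.98), Rpl22l1 (1.54) and Rpl10a (1.48) followed. At the other end were Rps7 (0.676), Rpl36 (0.695), Rpl24 (0.705), Rpl27 (0.798) and Rps27l (0.798).

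Processed pseudogenes, near copies of ribosomal protein mRNA that can share reads with their parent genes, were counted differently by the tables. Of the members, 83 had at least 1 matching annotated pseudogene (at least 80% identity over at least 50% of its length), 1724 in all. In the first table these pseudogenes held 8.88%, 12.9% and 10.5% of the counts of members and pseudogenes together, and in the second 15.4%, 23.1% and 17.7%. Replicate 2 had the highest pseudogene share in both. In the first table the pseudogene counts themselves were lowest there, at 6123, 5433 and 6137, beside 62865, 36653 and 52406 for the members. In the second table they were highest there, at 14118, 17322 and 13191, beside 77800, 57803 and 61195 for the members. With the counts of 298 pseudogenes named after their parent genes added to the members, the median deviation of replicate 2 was -0.42. Most of the 1724 matched pseudogenes were not added, among them Gm15500, a match of Rpl5 with 336, 399 and 278 counts in replicates 1 to 3. Whether pseudogene reads bear on the deviation was therefore not tested. For Rpl12 the share was 13.3% in the first table and 50.7% in the second, and for Rps12 4.87% and 22.6%. The shares were largest for Rpl29 (58.2%), Rpl27 (53.3%), Rpl7a (49.3%) and Rpl21 (47.3%) in the first table, and 13 members reached 20%. How reads were split between these genes and their copies is uncertain, and its part in the ratios between tables was not tested. The retained-intron share of Rps12 was 44.5% in the first table and 79.5% in the second, and that of Rpl12 50.9% and 87.7%. In 49 of 64 members the tables' shares were within 10 percentage points.

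The tract at the start of these mRNAs was read from the RefSeq promoter table (GRCm38.p6), which held 66 of the 86 members. A C followed by at least 4 bases that are each C or T, on the gene's strand, began within 15 bases of an annotated start in 47 of 66 members (71.2%), against 45.6% of 16522 genes. It began exactly at the start in 14 of 66 (21.2%), against 2.71%. The sequence CCGGAAG, the core bound by Ets family factors such as GABPA, occurred on either strand in 26 of 66 promoters (250 bases before to 50 after the start; 39.4%, against 13.4% of genes), and TATAAA in the 50 bases before the start in 1 (1.52%, against 3.69%). A match is a description of the letters, not of binding. The windows of 4 members follow because they show where such a match lies at or near an annotated start. Each runs from 10 bases before the RefSeq start to 20 bases after it, with the tract in capitals.
Rpl38, chr11:114668570-114668599, plus strand: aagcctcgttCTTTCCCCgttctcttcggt
Rpl12, chr2:32961702-32961731, plus strand: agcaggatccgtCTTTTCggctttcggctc
Rpl13a, chr7:45128726-45128755, minus strand: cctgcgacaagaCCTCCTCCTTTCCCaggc
Rps9, chr7:3704031-3704060, plus strand: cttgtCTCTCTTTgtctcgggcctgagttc
In Rpl38 the tract begins at the annotated start, in Rpl12 and Rpl13a 2 bases after it, and in Rps9 5 bases before it.

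Genes that work with the ribosomal proteins were compared on the same scale. Ribosomal proteins outside the name pattern were at levels like the members: Fau at 70.8, 98.4 and 65.2 TPM, and Rack1, a scaffold of the small subunit, at 62.8, 34.7 and 34.8. The 15 translation factors and other mRNAs with a pyrimidine tract had a median of 31.8 ± 10.5 TPM, led by the elongation factor Eef1a1 (610, 512 and 423 TPM), Tpt1 (149, 154 and 145) and Pabpc1 (142, 137 and 80.1). Their medians were 1.30-fold, 0.834-fold and 0.913-fold the other libraries in replicates 1 to 3, and 5 of the 15 were at least 1.5-fold higher in replicate 1, where 10.4% of all genes were. None of them was that much lower in replicate 2, where 6.25% of all genes were.

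The 43 ribosome biogenesis genes had a median of 7.27 ± 2.70 TPM, led by Ncl (65.0, 44.2 and 32.9 TPM), Nop56 (74.0, 27.9 and 21.3) and Npm1 (54.8, 42.1 and 24.4), abundant nucleolar proteins. Their medians were 1.59-fold, 0.746-fold and 0.838-fold the other libraries. At a fold of 1.5, 16 of 43 were higher in replicate 1, where 10.4% of all genes were. In replicate 2, 4 were lower (6.25% of all genes) and 1 higher (3.99%), and in replicate 3, 1 was lower (5.74%). The members themselves had 8 of 82 higher in replicate 1. Myc, which drives transcription of ribosome biogenesis genes, stood at 18.4, 2.81 and 3.84 TPM and was also highest in replicate 1. Whether its level bears on theirs was not tested. The 12 regulators, Myc included, had medians within 1.05-fold of the other libraries in each replicate, and Mdm2 was the highest of them at 112, 69.5 and 55.0 TPM.

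The 78 genes of mitochondrial ribosomal proteins, which form a separate ribosome, had a median of 5.04, 4.46 and 3.59 TPM, below the median of the cytosolic members in every library. They had medians of 1.11-fold, 0.909-fold and 1.02-fold the other libraries, and at a fold of 1.5, 9 of 78 were lower in replicate 2 (6.25% of all genes). In replicate 1, 6 were higher (10.4% of all genes) and 2 lower (8.46%), and in replicate 3, 2 were lower (5.74%). Their retained-intron share had a median of 33.6% ± 0.858 over 47 genes, higher than the 24.5% ± 4.85 of the cytosolic members, so a share above that of other protein-coding genes was not particular to the cytosolic ribosome. The spread over libraries was smaller, with 32.6%, 34.2% and 33.9% in replicates 1 to 3, and replicate 1 was not the highest.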

How the data were processed

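Nuclear RNA without ribosomal RNA was sequenced from 3 replicates of 1 group. The first gene and transcript tables deposited by the authors hold expected counts and TPM, and their columns are named as in RSEM output, per the file headers. The deposited posterior standard deviation of each count was treated as a score and used only to describe precision. The second transcript table, whose columns are named as in kallisto output, holds estimated counts and TPM deposited by the authors. The notes deposited with each library name mm10 and GENCODE M21, and the versions of the programs are not stated there.

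Expected counts were scaled with edgeR 4.0.16 (TMM, log2 CPM with a prior count of 2) over genes averaging 10 counts or more, and with DESeq2 1.42.0 size factors as an alternative. Counts were rounded to whole numbers for this scaling and were otherwise left as deposited. There is 1 group, so no test between groups was made. TPM differences were taken as log2(TPM + 0.1). Shares used genes averaging 50 counts or more. The median posterior standard deviation was 0.385% of the count over members. Pseudogenes were matched with blastn 2.17.0. In simulated counts with 200 genes changed 3-fold in replicate 1, among 15876 genes, 100% were found. That change is larger than the folds at which members were counted. Recovery at those smaller folds was not tested, so the 100% is no measure of it. No 2 libraries agreed within sampling noise (chi-square per degree of freedom 82.1 to 139).

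The text names the 10 highest and lowest members, the 5 highest and lowest retained-intron shares, the 5 members furthest in each library, the 5 largest ratios between tables each way, all paralogue pairs, the stalk genes, Rpl5 and Rpl11, and up to 3 genes at each end of the related lists. 1 member and 1 gene of the related lists are not reported here by name. Others, such as Rps24's and Rps15a's transcripts, Rpl41 and Rpl13a, were named after their values were seen. The members and lists were chosen with earlier results of these data known. Alternatives were another scaling, table, pseudocount, count minimum or fold, and each library left out.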

Additional observations from a re-analysis of the deposited data

How the results depend on the processing

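The median level of the members (5.20 on the log2 scale of TPM + 0.1) was 3.61 in the second table and 7.06 after rescaling to protein-coding genes, and stayed within its SD with a pseudocount of 1, without the 4 rare paralogues and without each replicate. The deviation of replicate 2 (-0.42) was -0.54 in the second table and ran from -0.53 to -0.39 against a single other library, that of replicate 1 from 0.10 to 0.53, and that of replicate 3 from -0.10 to 0.39, with -0.030 by total counts. Members at least 1.5-fold higher in replicate 1 numbered 8, or 19 by total counts, 13 in the second table, 0 at a fold of 2 and 10 to 36 against a single library. Those lower in replicate 1 numbered 0, or 1 without a count minimum and 0 to 3 against a single library. Those lower in replicate 2 numbered 15, or 1 at a fold of 2 and 21 to 36 against a single library. Those higher in replicate 3 numbered 3, or 1 by total counts, 1 in the second table, 0 at a fold of 2 and 3 to 21 against a single library, and those lower 0, or 0 to 10. The summed retained-intron share fell from 34.9% to 27.1% without Rpl3 and Rpl10a, a choice made after the data were seen, as were the comparisons of counts against a single library and of coding transcripts. On coding transcripts the log2 differences were 1.49 for Rpl7 and Rpl7l1, 3.18 for Rpl22 and Rpl22l1 and -0.60 for Rpl36a and Rpl36al. In the second table they were 0.35 for Rpl36a and Rpl36al and 2.25 for Rps27 and Rps27l. At a ratio of 1.5 instead of 2, 4 members differed between the tables. The cause of these shifts was not tested. No pairing between groups was possible because there is only 1 group, while paralogues were compared within each library.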
